A study of Homo sapiens with 6 samples.

Results

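Interferon-stimulated genes are the transcripts that cells switch on after an interferon binds its receptor. The 38 genes described here form a list of such transcripts, matched to the files by symbol. Of these, 36 had a row among the 28847 genes of the series (MX1 and IFI44L were not analysed here), and 29 had a value of 10 or more in at least 3 of the 6 libraries and were tested. The RNA came from cells with the label THP-1, an established human line from a monocytic leukaemia, and the series presents the treated cells as a model of M0 (unpolarized) macrophages. The 3 RBP4 libraries were labelled as THP-1 cells given recombinant human RBP4, the plasma carrier of retinol, and the 3 control libraries as THP-1 cells alone. The labels give no dose or time and do not say whether libraries came from separate cultures, so p-values measure the spread between these libraries, which may be technical. Values are normalized reads, that is, read counts of each gene that the authors scaled by library.

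Interferons signal through a receptor, the kinases JAK1 and TYK2 and a complex that includes STAT2 and IRF9 and binds the interferon-stimulated response element of target promoters. The induced proteins sense viral RNA, degrade it, block viral entry, assembly or release, and conjugate the ubiquitin-like protein ISG15 to other proteins. Several of them, such as IRF7 and the RNA sensors, act back on the production of interferon, and USP18 damps the receptor. Many are also transcribed at a low level in cells that have met no interferon.

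Promoter sequences are shown for 6 members whose behaviour differed, so that the response element can be read beside the values: IFITM1 and EPSTI1, which fell, IFIT1, which was not called, and OAS3, IFI6 and IFI35, which rose. Each is the 250 bases before the start site in RefSeq on GRCh38.p14, written 5′ to 3′ on the strand of the gene. The regions are chr11:313790-314039 (plus strand) for IFITM1, chr13:42992242-42992491 (minus strand) for EPSTI1, chr10:89392373-89392622 (plus strand) for IFIT1, chr12:112938224-112938473 (plus strand) for OAS3, chr1:27672193-27672442 (minus strand) for IFI6 and chr17:43006534-43006783 (plus strand) for IFI35. Capitals mark matches to GAAA followed by any 2 bases and a second GAAA, the core of the response element, or to its reverse complement. The last capitals of IFITM1 belong to a match that runs on past the start site.
IFITM1: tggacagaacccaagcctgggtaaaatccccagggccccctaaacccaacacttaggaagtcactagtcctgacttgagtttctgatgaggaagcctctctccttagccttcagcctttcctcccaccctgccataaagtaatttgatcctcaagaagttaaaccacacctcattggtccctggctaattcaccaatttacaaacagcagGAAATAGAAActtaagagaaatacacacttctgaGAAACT
EPSTI1: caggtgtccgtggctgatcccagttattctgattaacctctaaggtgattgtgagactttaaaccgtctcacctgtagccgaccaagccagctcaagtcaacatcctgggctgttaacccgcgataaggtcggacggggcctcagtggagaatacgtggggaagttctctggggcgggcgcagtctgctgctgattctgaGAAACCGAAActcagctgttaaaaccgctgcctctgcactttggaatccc
IFIT1: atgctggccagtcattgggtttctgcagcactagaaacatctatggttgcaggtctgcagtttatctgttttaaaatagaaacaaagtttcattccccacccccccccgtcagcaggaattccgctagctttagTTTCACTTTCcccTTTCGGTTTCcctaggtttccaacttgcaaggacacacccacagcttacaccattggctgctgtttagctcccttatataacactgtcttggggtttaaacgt
OAS3: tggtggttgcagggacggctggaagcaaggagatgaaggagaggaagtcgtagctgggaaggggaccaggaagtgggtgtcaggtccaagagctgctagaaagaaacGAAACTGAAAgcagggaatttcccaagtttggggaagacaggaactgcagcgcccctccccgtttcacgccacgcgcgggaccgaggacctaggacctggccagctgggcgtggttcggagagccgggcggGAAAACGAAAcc
IFI6: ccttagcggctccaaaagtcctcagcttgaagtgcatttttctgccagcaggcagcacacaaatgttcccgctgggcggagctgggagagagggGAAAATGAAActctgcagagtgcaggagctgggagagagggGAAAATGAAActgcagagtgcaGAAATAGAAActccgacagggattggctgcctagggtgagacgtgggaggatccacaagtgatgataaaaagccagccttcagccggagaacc
IFI35: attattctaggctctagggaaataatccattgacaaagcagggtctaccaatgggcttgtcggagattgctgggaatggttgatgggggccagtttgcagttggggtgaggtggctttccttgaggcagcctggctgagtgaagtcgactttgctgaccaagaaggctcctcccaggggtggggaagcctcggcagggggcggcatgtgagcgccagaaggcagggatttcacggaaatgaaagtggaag

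Of the 38 members, 30 had an entry in the RefSeq promoter table, with 39 start sites in all. Those without an entry were IRF7, IFIT2, OAS2, OASL, MX2, GBP2, USP18 and TRIM22. The search covered both strands of the 250 bases before and 50 bases after each start, a window of 300 bases. A match to this core was present at 25 of the 39 start sites (64.1%), against 1255 of 35116 start sites of all genes (3.57%). TTCNNNGAA, the core of the gamma-activated site, which reads the same on both strands, was found in 8 of the 30 members and at 7.66% of all start sites. The member figure counts genes with a match at any of their start sites, so these shares are in unlike units. A match is a description of the letters and not a measured binding site.

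Tested members with and without a match are described apart. Over all genes tested, 24.5% rose and 26.1% fell (limma, adjusted p under 0.05). Of 16 with a match, 5 rose, 2 fell and 9 were not called, with a median log2 fold change of 0.33. Of 7 without a match, 5 rose and 2 were not called, with a median of 0.72. That median is the value of HERC6, which was not called. HERC6 and SAMD9L, without a match, met the filter through the RBP4 libraries and would not have met it through the control libraries alone. The same held for RSAD2, SAMD9 and IFI27, with a match, so neither median is free of this selection. IFI6 had 3 matches, which began 156, 115 and 93 bases before the start, and OAS3 had 2, at 143 and 12 bases. IFIT1 also had 2 matches, at 116 and 103 bases before its start. EPSTI1 had 1, at 50 bases, and IFITM1 had 2, at 40 and 6 bases. No match lay in the window of STAT2, DDX58, SAMD9L or IFI35 or in any of the 3 windows of CMPK2, all genes that rose.

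Most called members were higher with RBP4, among them STAT2, the RNA sensors DDX58 and IFIH1, and OAS3, while IFITM1, EPSTI1 and IRF7 were lower. RSAD2, SAMD9, SAMD9L, GBP2, HERC6 and IFI27 met the filter in the RBP4 libraries and would not have met it through the control libraries alone, which bears on every count and median of the members. Of the 29 members tested, 12 rose, 3 fell and 14 did not pass the threshold (limma's moderated test on log2(value + 1), Benjamini-Hochberg adjusted p under 0.05 over all genes tested). Over all 15676 genes tested, 50.6% were called, 24.5% raised and 26.1% lowered. The members had a median log2 fold change of 0.37, with a range of -1.08 for EPSTI1 to 1.36 for GBP2, beside a median of -0.0021 over all genes tested. The groups did not overlap, with RBP4 higher, for 16 members, against 27.3% of all genes tested, and with RBP4 lower for 2 members, against 28.9%. The first set holds all 12 raised members with IFITM3, BST2, RSAD2 and IFI27, and the second is IFITM1 and EPSTI1. Libraries scaled to equal totals gave 14 raised and 3 lowered members, and in that scaling 61.7% of all calls were raised, against 48.4% with the deposited scaling.

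**Figure D1:**
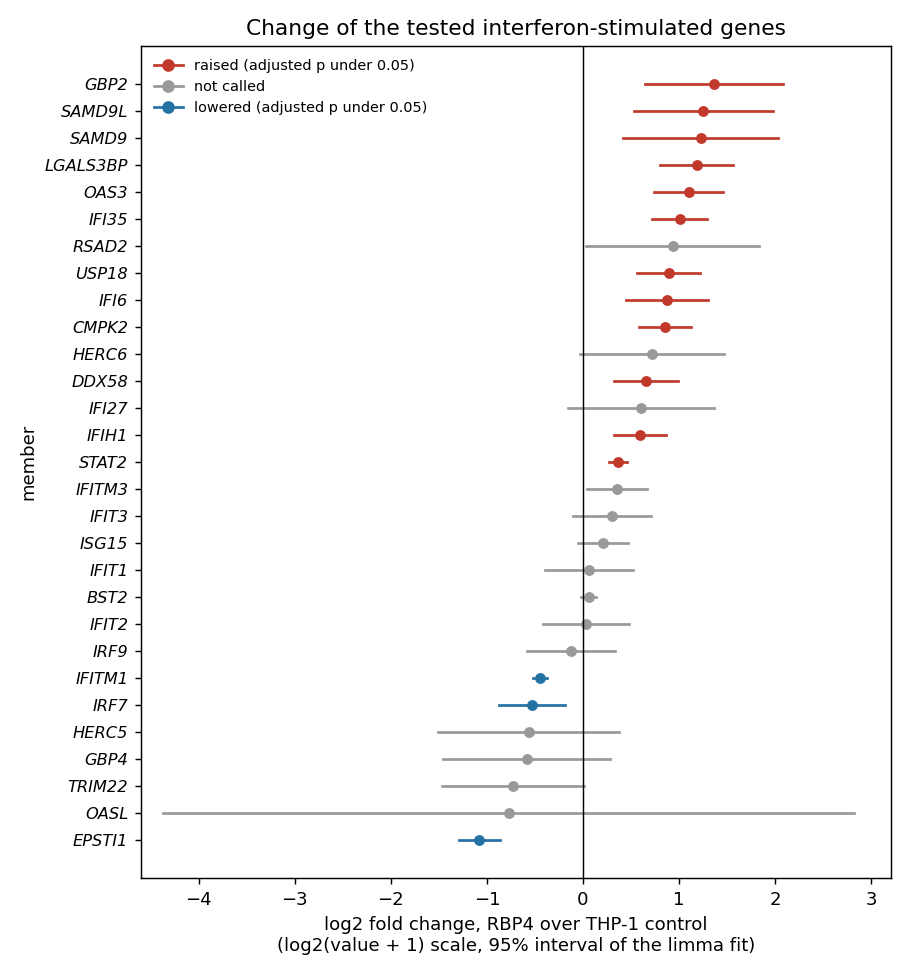
Log2 fold change of each tested member (x axis, RBP4 over THP-1 control on the log2(value + 1) scale) with its 95% interval from the limma fit; red members rose, blue fell and grey were not called. The 12 raised members lie between 0.37 (STAT2) and 1.36 (GBP2), and the interval of OASL, the widest of the 29, spans 0.

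Most members were low, and low genes as a whole leaned upward in these libraries. Of the members averaging under 50 normalized reads over the 6 libraries, 4 of 14 rose and none fell, where 22.2% of all tested genes of that level rose and 7.92% fell. Of those averaging 50 to 200, 7 of 11 rose and 1 fell, where 33.6% of all genes of that level rose and 10.8% fell. Of those at 200 or more, 1 of 4 rose and 2 fell, where 22.8% rose and 38.4% fell. The median log2 fold change of the members was 0.34, 0.66 and -0.19 in the low, middle and high class, beside 0.20, 0.15 and -0.060 for all tested genes. In the low class, GBP2, SAMD9 and SAMD9L, which rose, would not have met the filter through the control libraries alone. The same held for RSAD2, HERC6 and IFI27, which were not called. The count and median of that class carry this selection. The members tested had a median of 21.0 normalized reads per kilobase of gene in the RBP4 libraries and 10.9 in the control libraries, while all genes tested had medians of 75.3 in the RBP4 libraries and 72.9 in the control libraries. The medians of the members fell on different genes, DDX58 in the RBP4 libraries and LGALS3BP in the control libraries. Their distance is therefore not a fold change of the members, whose median log2 fold change was 0.37.

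**Figure D2:**
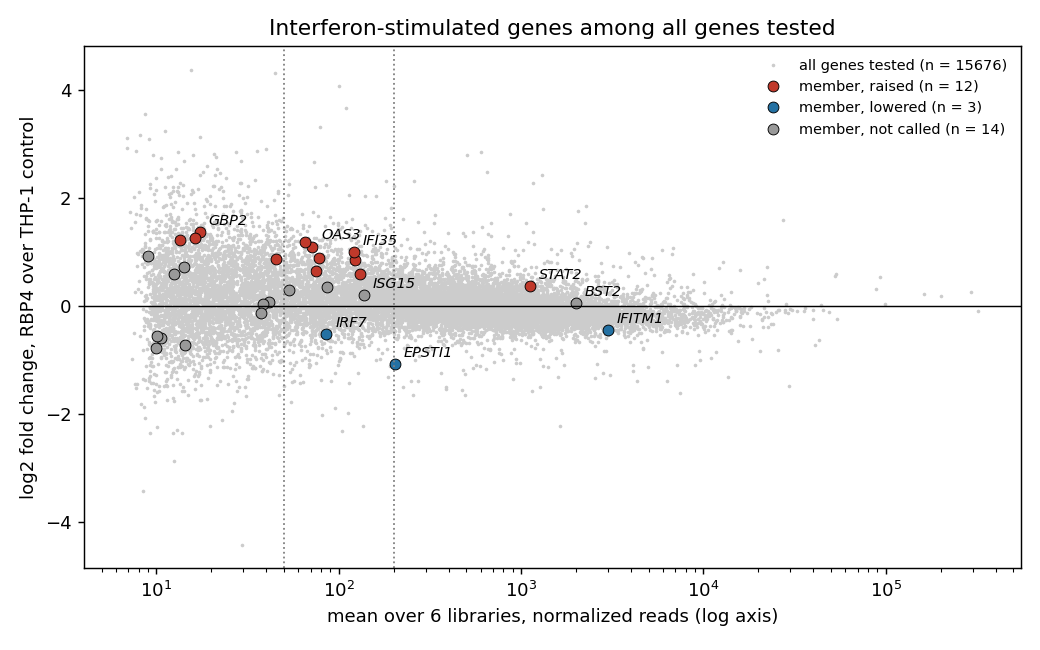
Mean over the 6 libraries (x axis, normalized reads, log axis) against the log2 fold change of RBP4 over THP-1 control (y axis) for the 15676 genes tested (grey points) and the 29 members tested (circles, red raised, blue lowered, grey not called); dotted lines mark 50 and 200 normalized reads. IFITM1, BST2 and STAT2 stand apart at the right, and the other members lie at low levels, where the cloud of all genes is widest.

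IFITM1, BST2 and STAT2 held most of the summed level of the members. All members together took 0.0478% to 0.0495% of the normalized reads in the RBP4 libraries and 0.0468% to 0.0485% in the control libraries, ranges that overlap. IFITM1, BST2 and STAT2 made up 77.1% to 77.5% of that sum in the RBP4 libraries and 80.3% to 83.7% in the control libraries. The other 33 members with a row summed to 1715 ± 41.1 normalized reads in the RBP4 libraries and 1372 ± 116 in the control libraries (mean ± SD, n = 3 each, as for every ± here), a ratio of 1.25.

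By the recovered read counts, the libraries held 15994483 to 16420517 reads in the RBP4 group and 15202000 to 16149118 reads in the control group, so that a count of 0 allowed up to 2.90 normalized reads in the RBP4 libraries and 3.21 in the control libraries (3 counts, counting error only). The label was checked against markers, which go against it: CD14 was at 0 in all RBP4 libraries and at 1.39 ± 0.647 normalized reads in the control libraries, and of 18 monocyte and macrophage markers 3 reached 10 CPM (read counts scaled to the total of the library) in all 6 libraries. Of 17 erythroid markers, 14 did, and of 7 pan-leukocyte markers, 5. The groups are therefore named by their labels. Several measures moved with the group, the marker sums among them as CPM. CPM sets libraries to equal totals. The normalized reads summed to 1.546e+07 to 1.553e+07 in the RBP4 libraries and 1.622e+07 to 1.628e+07 in the control libraries. Marker sums as CPM therefore lean higher in RBP4 than sums of normalized reads, and their separation can depend on the scaling. As background for the marker counts, 24.5% of all genes tested rose and 26.1% fell. Monocyte and macrophage markers summed to 135 to 142 CPM in the RBP4 libraries and 123 to 130.1 CPM in the control libraries. Of 6 tested, 4 rose (SPI1, LYZ, ITGAM and MSR1) and 1 fell (CD33). Without SPI1 the ranges of the sum overlapped, at 87.4 to 93.8 CPM in the RBP4 libraries and 83.3 to 91.5 CPM in the control libraries. MSR1, and EPB42 among the raised erythroid markers, would not have met the filter through the control libraries alone. Erythroid markers summed to 2359 to 2445 CPM in the RBP4 libraries and 2618 to 2635 CPM in the control libraries, with 7 of 17 raised and 4 lowered. TFRC, the transferrin receptor, sets that direction, at 483 CPM in the RBP4 libraries and 901 CPM in the control libraries, and the other 16 summed to 1887 to 1945 CPM in the RBP4 libraries and 1715 to 1734 CPM in the control libraries. Pan-leukocyte markers summed to 899 to 906 CPM in the RBP4 libraries and 993 to 1009 CPM in the control libraries, with 2 of 7 raised and 2 lowered. LCP1 differed most, at 339 CPM in the RBP4 libraries and 443 CPM in the control libraries. The other 6 summed to 561 to 566 CPM in the RBP4 libraries and 557 to 558 CPM in the control libraries. Of these, CD53 also fell, at 1422 ± 40.4 normalized reads in the RBP4 libraries and 1937 ± 26.5 in the control libraries, while LAPTM5 and CORO1A rose. The direction without LCP1 therefore depends on the scaling. Leaving out the gene that differed most was chosen after seeing the data. Markers of plasmacytoid dendritic cells, the main producers of type I interferon, summed to 44.5 to 49.5 CPM in the RBP4 libraries and 34.2 to 43.0 CPM in the control libraries, nearly all from TCF4, with IRF8 at 0 in every RBP4 library and TLR9 at 0 in every control library. The share of mitochondrially encoded reads was 7.58% to 7.69% in the RBP4 libraries and 5.90% to 6.10% in the control libraries. The part of these measures in the changes of the members was not tested, and fewer cells of a type and less RNA per cell cannot be told apart in such libraries.

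Of the factors that carry the interferon signal to the genome, STAT2 rose, IRF7 fell and IRF9 was not called. STAT2 (ENSG00000170581, chromosome 12, 56341597 to 56360155, minus strand), a transcription factor activated by type I interferon, had 1229, 1289.8 and 1253 normalized reads in the RBP4 libraries, against 979, 968 and 978 normalized reads in the control libraries. Every RBP4 library lay above every control library, a 1.29-fold rise (log2 fold change 0.37, SE 0.0469, adjusted p = 6.51e-10 in limma). IRF7 (ENSG00000185507, chromosome 11, 612553 to 615999, minus strand), which drives the transcription of interferon alpha genes, had 78.3, 58.5 and 69.6 normalized reads in the RBP4 libraries, against 91.1, 77.5 and 137 normalized reads in the control libraries. The groups overlapped, since RBP4 library 1 was above control library 2 and control library 3 stood highest. IRF7 was 1.48-fold lower (log2 fold change -0.53, SE 0.171, adjusted p = 0.00816 in limma), a call that was lost without control library 3 (log2 fold change -0.29, adjusted p = 0.183 in limma) or without RBP4 library 2 (-0.42, adjusted p = 0.0586). IRF9, the DNA-binding partner of STAT2, stood at 35.6 ± 2.51 normalized reads in the RBP4 libraries and 39.4 ± 8.19 in the control libraries (log2 fold change -0.12, 95% interval -0.58 to 0.33, adjusted p = 0.682 in limma). Its exons share 48.4% of their bases with AL136295.5, a protein-coding gene on the same strand, so its reads are uncertain.

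Both members that encode cytosolic sensors of viral RNA rose. Outside the members, DHX58, on the list of nucleic acid sensing genes, was not called. It averaged 39.1 ± 7.93 normalized reads in the RBP4 libraries and 29.3 ± 5.06 in the control libraries (log2 fold change 0.40, adjusted p = 0.163 in limma). DDX58 (ENSG00000107201, chromosome 9, 32455705 to 32526324, minus strand), which encodes RIG-I, a sensor of short RNA with 5′ phosphates, had 89.9, 93.5 and 90.6 normalized reads in the RBP4 libraries, against 52.8, 60.4 and 59.96 normalized reads in the control libraries. IFIH1 (ENSG00000115267, chromosome 2, 162267079 to 162318703, minus strand), which encodes MDA5, a sensor of long double-stranded RNA, had 147, 165 and 159 normalized reads in the RBP4 libraries, against 84.9, 99.6 and 132 normalized reads in the control libraries. Neither gene showed overlap between the groups, although control library 3 came close to RBP4 library 1 for IFIH1. DDX58 rose 1.58-fold (log2 fold change 0.66, SE 0.165, adjusted p = 0.00063 in limma) and IFIH1 1.49-fold (log2 fold change 0.59, SE 0.134, adjusted p = 0.000163 in limma).

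Among enzymes of RNA and nucleotide metabolism, OAS3 and CMPK2 rose. The OAS proteins make 2′-5′ oligoadenylates that activate RNase L. OAS3 (ENSG00000111331, chromosome 12, 112938352 to 112973249, plus strand) had 76.4, 115 and 103 normalized reads in the RBP4 libraries, against 37.3, 48.3 and 49.3 normalized reads in the control libraries. All RBP4 values were above all control values, a 2.19-fold rise (log2 fold change 1.10, SE 0.180, adjusted p = 4.20e-07 in limma). Its neighbours on chromosome 12 were not tested, with OAS1 at 2.52 ± 2.88 normalized reads in the RBP4 libraries and 2.03 ± 2.65 in the control libraries and OAS2 at 6.03 ± 1.93 normalized reads in the RBP4 libraries and 6.61 ± 2.62 in the control libraries. OASL, a relative without that enzyme activity that enhances RIG-I signalling, had 2.90, 31.2 and 0 normalized reads in the RBP4 libraries, against 3.10, 12.1 and 10.7 normalized reads in the control libraries. That scatter, with RBP4 library 2 the highest and RBP4 library 3 at 0, left a wide interval (log2 fold change -0.77, 95% interval -4.37 to 2.82, adjusted p = 0.692 in limma). Without RBP4 library 2 the log2 fold change of OASL was -2.12 (adjusted p = 0.0172 in limma), and without RBP4 library 3 it was 0.39.

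CMPK2 (ENSG00000134326, chromosome 2, 6840570 to 6866635, minus strand), a nucleotide kinase of mitochondria, had 142, 176 and 156 normalized reads in the RBP4 libraries, against 88.0, 76.5 and 97.4 normalized reads in the control libraries. The groups were apart, and CMPK2 rose 1.81-fold (log2 fold change 0.85, SE 0.135, adjusted p = 2.14e-07 in limma). RSAD2, which encodes viperin, an enzyme that makes a chain-terminating nucleotide, lies beside CMPK2 on the opposite strand, and their exons share 14 bases. It had 14.5, 11.3 and 10.5 normalized reads in the RBP4 libraries, against 5.17, 5.03 and 7.496 normalized reads in the control libraries. RSAD2 passed the filter through its RBP4 libraries alone, so a difference was built into its selection, and it was not called (log2 fold change 0.93, adjusted p = 0.079 in limma). ISG20, an RNA exonuclease, was just below the filter, with 1 library at 10 or more, at 9.22 ± 2.36 normalized reads in the RBP4 libraries and 4.83 ± 2.13 in the control libraries, and was not tested.

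None of the 3 tested IFIT genes, a family whose IFIT1 protein binds viral RNA without host cap methylation, was called. IFIT1 averaged 41.7 ± 4.58 normalized reads in the RBP4 libraries and 41.4 ± 16.1 in the control libraries (log2 fold change 0.07, 95% interval -0.39 to 0.52, adjusted p = 0.83 in limma). IFIT2 averaged 38.8 ± 2.45 normalized reads in the RBP4 libraries and 38.04 ± 4.44 in the control libraries (log2 fold change 0.03, 95% interval -0.41 to 0.48, adjusted p = 0.913 in limma), and IFIT3, which stabilizes IFIT1, 58.3 ± 10.4 normalized reads in the RBP4 libraries and 47.9 ± 14.4 in the control libraries (log2 fold change 0.30, 95% interval -0.11 to 0.71, adjusted p = 0.219 in limma). The groups overlapped in each of these 3 genes. In IFIT1 and IFIT3 control library 3 was the highest of the control libraries, at 59.96 and 64.2 normalized reads, and without it IFIT3 was called (log2 fold change 0.53, adjusted p = 0.0402 in limma). IFIT5, at 2.22 ± 1.43 normalized reads in the RBP4 libraries and 0.357 ± 0.618 in the control libraries, was not tested. All 4 lie between positions 89283694 and 89421001 of chromosome 10.

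Of the genes that restrict entry or release of virus particles, IFITM1 fell, and IFITM3 and BST2 were not called. IFITM1 (ENSG00000185885, chromosome 11, 313506 to 315272, plus strand), which blocks fusion of viral and cell membranes, had 2455, 2624 and 2520.0 normalized reads in the RBP4 libraries, against 3485, 3660.5 and 3222 normalized reads in the control libraries. All RBP4 libraries lay below all control libraries, and IFITM1 was 1.36-fold lower (log2 fold change -0.45, SE 0.0368, adjusted p = 6.80e-15 in limma). Per length it stood at 2345 normalized reads per kilobase in the RBP4 libraries and 3199.8 in the control libraries, the highest of the members in both groups. IFITM3, which acts on endosomes, averaged 96.1 ± 8.50 normalized reads in the RBP4 libraries and 75.5 ± 12.3 in the control libraries, with no overlap between the groups, and missed the threshold (log2 fold change 0.35, 95% interval 0.04 to 0.67, adjusted p = 0.0552 in limma). It passed with TMM scaling (adjusted p = 0.0472 in limma), with equal totals (0.0222), with a minimum of 50 normalized reads (0.0491) and without RBP4 library 3 (0.0466), control library 1 (0.0324) or control library 3 (0.0401).

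The ratio of IFITM1 to IFITM3 was 23.7, 26.7 and 29.03 in the RBP4 libraries and 41.6, 59.6 and 39.6 in the control libraries. It was lower in every RBP4 library, which follows from the values of IFITM1 and IFITM3 above. The IFITM genes are near copies. Of all stretches of 50 bases in IFITM1 transcripts, 32.0% also occur in another gene, mostly IFITM2, whose exons overlap those of IFITM1, and for IFITM3 the share was 35.2%, led by the lincRNA AC136475.5 on the opposite strand, with IFITM2 and IFITM1 next. IFITM2 itself, chosen after its values were seen, averaged 358 ± 20.9 normalized reads in the RBP4 libraries and 469.9 ± 4.45 in the control libraries and was lower (log2 fold change -0.39, adjusted p = 4.60e-06 in limma). BST2 (ENSG00000130303, chromosome 19, 17402939 to 17405648, minus strand), which encodes tetherin, a protein that holds budding virus at the cell surface, had 2024, 2007 and 2091 normalized reads in the RBP4 libraries, against 1984, 1971 and 1922 normalized reads in the control libraries. The RBP4 values were higher without overlap, but the difference of 1.04-fold was not called (log2 fold change 0.06, 95% interval -0.02 to 0.13, adjusted p = 0.193 in limma), and it passed when libraries were scaled to equal totals (log2 fold change 0.13, adjusted p = 0.00368 in limma).

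Of the large GTPases, GBP2 rose. GBP2 (ENSG00000162645, chromosome 1, 89106132 to 89150456, minus strand), a guanylate-binding protein that attacks vacuoles of pathogens, had 16.4, 23.6 and 36.2 normalized reads in the RBP4 libraries, against 10.3, 6.04 and 10.7 normalized reads in the control libraries. The groups did not overlap, and GBP2 rose 2.82-fold (log2 fold change 1.36, SE 0.361, adjusted p = 0.00113 in limma), the highest log2 fold change of the members. It reached 10 normalized reads in all 3 RBP4 libraries and in 2 control libraries, and with no filter on low values its adjusted p was 0.000838 in limma. Its transcripts share 10.2% of their stretches of 50 bases with other genes, mainly GBP7. GBP4, from the same cluster on chromosome 1, had 4.83, 14.2 and 6.68 normalized reads in the RBP4 libraries, against 12.4, 9.06 and 16.1 normalized reads in the control libraries (log2 fold change -0.59, adjusted p = 0.265 in limma) and was not called. MX2, a GTPase that blocks nuclear entry of viral genomes, stood at 6.05 ± 1.97 normalized reads in the RBP4 libraries and 7.63 ± 1.38 in the control libraries and was not tested.

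In the ISG15 system, USP18 rose and the modifier itself did not pass. ISG15 (ENSG00000187608, chromosome 1, 1001138 to 1014540, plus strand), the ubiquitin-like protein, had 175, 147 and 120.2 normalized reads in the RBP4 libraries, against 136, 127 and 117 normalized reads in the control libraries. The groups overlapped, and the difference was not called (log2 fold change 0.21, 95% interval -0.05 to 0.46, adjusted p = 0.178 in limma), except without RBP4 library 3 (log2 fold change 0.35, adjusted p = 0.0381 in limma). USP18 (ENSG00000184979, chromosome 22, 18149899 to 18177397, plus strand), the protease that removes ISG15 and binds the type I receptor as a brake, had 105, 104 and 96.3 normalized reads in the RBP4 libraries, against 52.8, 48.3 and 63.2 normalized reads in the control libraries. The RBP4 values were all higher, a 1.86-fold rise (log2 fold change 0.89, SE 0.165, adjusted p = 5.46e-06 in limma). USP18 shares 23.4% of its stretches of 50 bases with other genes, mostly its copy USP41, which averaged 1.27 normalized reads in the RBP4 libraries and 0 in the control libraries. HERC5, the ligase that attaches ISG15, averaged 7.30 ± 2.67 normalized reads in the RBP4 libraries and 12.9 ± 7.95 in the control libraries (log2 fold change -0.56, 95% interval -1.51 to 0.38, adjusted p = 0.327 in limma). Control library 2 had 4.02 normalized reads of HERC5, below every RBP4 library, and without it HERC5 was called lower (log2 fold change -1.19, adjusted p = 0.0293 in limma). Its relative HERC6 averaged 17.8 ± 5.55 normalized reads in the RBP4 libraries and 10.4 ± 3.44 in the control libraries (log2 fold change 0.72, 95% interval -0.03 to 1.47, adjusted p = 0.105 in limma).

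SAMD9 (ENSG00000205413, chromosome 7, 93099513 to 93118023, minus strand) and SAMD9L (ENSG00000177409, chromosome 7, 93130055 to 93148369, minus strand) are adjacent genes of proteins that restrain poxviruses and cell growth. SAMD9 had 28.0, 16.1 and 13.4 normalized reads in the RBP4 libraries, against 6.21, 5.03 and 11.8 normalized reads in the control libraries. SAMD9L had 20.3, 26.4 and 21.9 normalized reads in the RBP4 libraries, against 9.31, 14.1 and 5.35 normalized reads in the control libraries. In both genes each RBP4 library exceeded each control library. Both reached 10 normalized reads in all 3 RBP4 libraries and in 1 control library, so they passed the filter through the RBP4 libraries. SAMD9 rose 2.50-fold (log2 fold change 1.23, SE 0.404, adjusted p = 0.00873 in limma) and SAMD9L 2.39-fold (log2 fold change 1.25, SE 0.364, adjusted p = 0.00288 in limma). With no filter on low values the adjusted p was 0.00917 for SAMD9 and 0.0028 for SAMD9L in limma. The SAMD9 call was lost without RBP4 library 1 (log2 fold change 0.93, adjusted p = 0.119 in limma).

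Of the small interferon-inducible proteins, IFI35 and IFI6 rose. IFI35 (ENSG00000068079, chromosome 17, 43006725 to 43014456, plus strand), a leucine zipper protein that binds NMI, had 161, 129 and 196 normalized reads in the RBP4 libraries, against 76.6, 69.4 and 93.2 normalized reads in the control libraries. IFI6 (ENSG00000126709, chromosome 1, 27666061 to 27672218, minus strand), a protein that guards cells against flavivirus replication, had 58.0, 54.8 and 63.9 normalized reads in the RBP4 libraries, against 27.9, 40.2 and 27.8 normalized reads in the control libraries. In neither gene did the groups overlap, and RBP4 library 3 was the highest of all 6 in both. IFI35 rose 2.04-fold (log2 fold change 1.008, SE 0.144, adjusted p = 2.05e-08 in limma), and IFI6 rose 1.84-fold (log2 fold change 0.88, SE 0.215, adjusted p = 0.000433 in limma). IFI27, a mitochondrial protein widely used as a marker of the interferon response, had 14.5, 17.9 and 13.4 normalized reads in the RBP4 libraries, against 8.28, 10.1 and 10.7 normalized reads in the control libraries. These values did not overlap, yet the test did not call them (log2 fold change 0.60, 95% interval -0.16 to 1.37, adjusted p = 0.187 in limma). IFI44, at 1.59 ± 1.45 normalized reads in the RBP4 libraries and 0.692 ± 0.600 in the control libraries, was too low to test.

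The remaining members included the strongest fall. EPSTI1 (ENSG00000133106, chromosome 13, 42886388 to 42992271, minus strand), an interferon-induced gene named for epithelial and stromal interaction, had 111, 133 and 146 normalized reads in the RBP4 libraries, against 287, 276 and 260.2 normalized reads in the control libraries. Every RBP4 library was below every control library, and EPSTI1 was 2.11-fold lower (log2 fold change -1.08, SE 0.109, adjusted p = 2.21e-13 in limma), the lowest log2 fold change of the members. LGALS3BP (ENSG00000108679, chromosome 17, 78971238 to 78980109, minus strand), a secreted glycoprotein that binds galectins, had 108, 98.2 and 67.7 normalized reads in the RBP4 libraries, against 43.5, 37.2 and 36.4 normalized reads in the control libraries. The groups were apart, with RBP4 library 3 the lowest of its group, and LGALS3BP rose 2.34-fold (log2 fold change 1.18, SE 0.189, adjusted p = 2.33e-07 in limma). TRIM22, a ubiquitin ligase with antiviral activity, averaged 10.5 ± 2.99 normalized reads in the RBP4 libraries and 17.97 ± 3.92 in the control libraries (log2 fold change -0.73, 95% interval -1.47 to 0.01, adjusted p = 0.0925 in limma). XAF1, which promotes cell death, stood at 0.318 ± 0.551 normalized reads in the RBP4 libraries and 0.345 ± 0.598 in the control libraries and was not tested.

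**Figure D3:**
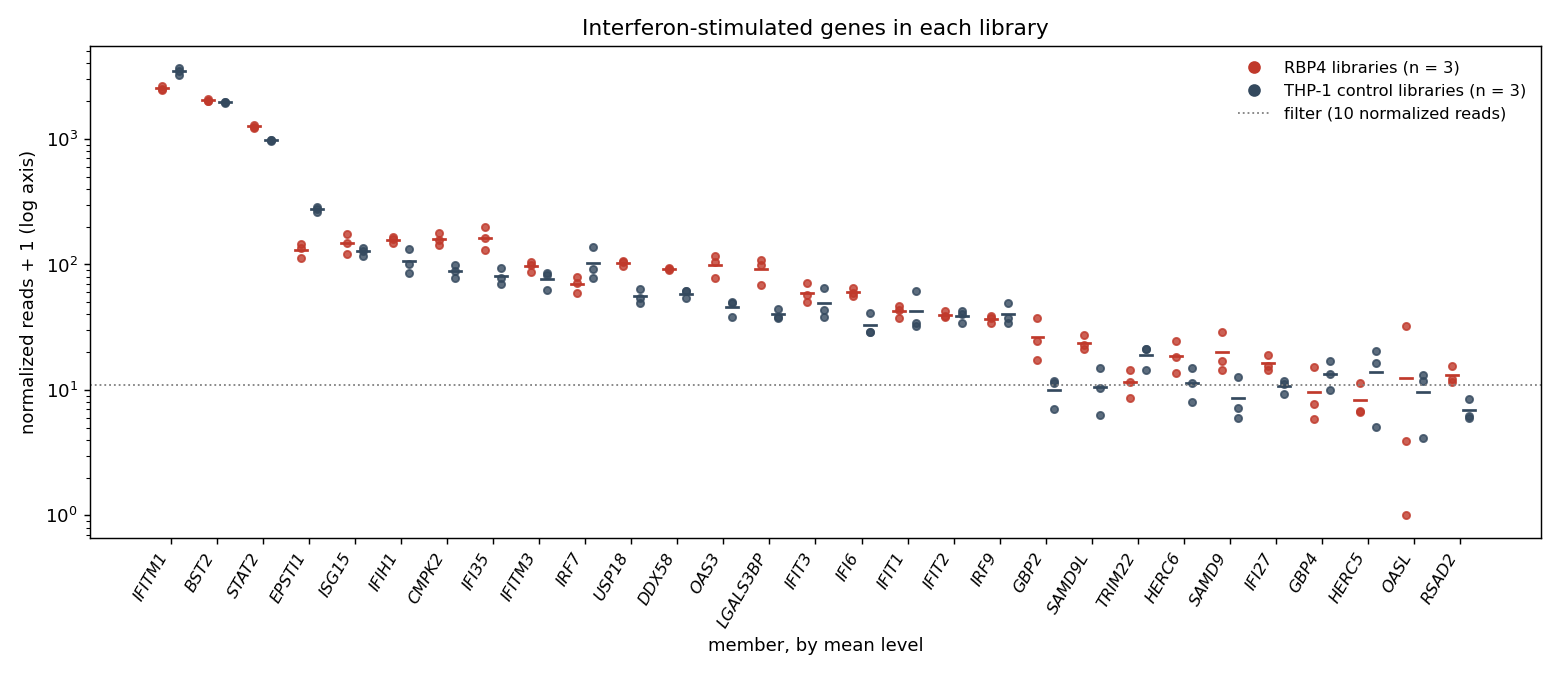
Normalized reads + 1 (y axis, log axis) of the 29 tested members in each of the 3 RBP4 libraries (red) and the 3 THP-1 control libraries (dark blue), with the group mean as a bar; members are ordered by mean level along the x axis. IFITM1, BST2 and STAT2 lie highest, EPSTI1 has its red points under the dark ones, and OASL has the widest scatter.

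Levels per length set the members in a different order from read counts. After IFITM1, BST2 had 1823 normalized reads per kilobase in the RBP4 libraries and 1751 in the control libraries, followed by STAT2 with 206 normalized reads per kilobase in the RBP4 libraries and 159.6 in the control libraries and ISG15 with 157 normalized reads per kilobase in the RBP4 libraries and 134 in the control libraries. IFI35 had 82.3 normalized reads per kilobase in the RBP4 libraries and 40.4 in the control libraries, IFITM3 71.3 normalized reads per kilobase in the RBP4 libraries and 56.0 in the control libraries, IFI6 68.1 normalized reads per kilobase in the RBP4 libraries and 37.0 in the control libraries and USP18 47.8 normalized reads per kilobase in the RBP4 libraries and 25.7 in the control libraries. IFIT1 and OAS3 were at 9.03 normalized reads per kilobase in the RBP4 libraries and 8.98 in the control libraries and at 11.9 normalized reads per kilobase in the RBP4 libraries and 5.45 in the control libraries. In the control libraries EPSTI1, at 55.7 normalized reads per kilobase, lay next to IFITM3, at 56.0, and in the RBP4 libraries it was at 26.4, next to IRF7 at 26.2.

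Upstream of the members, 3 of 13 interferon genes were analysed, and these were near 0. IFNB1 was at 0 ± 0 normalized reads in the RBP4 libraries and 0.680 ± 0.589 in the control libraries, IFNK at 0.637 ± 0.552 normalized reads in the RBP4 libraries and 0.702 ± 0.608 in the control libraries and IFNL1 at 0.318 ± 0.551 normalized reads in the RBP4 libraries and 0.335 ± 0.581 in the control libraries, all below the floor of 3 counts, and none was tested. Of 8 tested receptors and kinases, 2 rose and 3 fell. IFNAR1, a chain of the type I receptor, averaged 1074 ± 24.3 normalized reads in the RBP4 libraries and 806 ± 49.3 in the control libraries (log2 fold change 0.42, adjusted p = 2.88e-10 in limma). IFNGR1, the ligand-binding chain of the interferon gamma receptor, rose 1.15-fold (log2 fold change 0.21, adjusted p = 0.00265 in limma) and its partner IFNGR2 was 1.25-fold lower (log2 fold change -0.32, adjusted p = 3.58e-05 in limma). JAK2, the kinase that IFNGR2 carries, was 1.12-fold lower (log2 fold change -0.16, adjusted p = 0.00209 in limma).

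Transcription factors outside the members also differed. STAT3 was 1.19-fold lower (log2 fold change -0.24, adjusted p = 9.82e-10 in limma). IRF3, which starts interferon beta transcription, rose 1.09-fold (log2 fold change 0.12, adjusted p = 0.037 in limma), and IRF1, an interferon-induced activator, 1.22-fold (log2 fold change 0.29, adjusted p = 0.0447 in limma). Of 9 tested negative regulators of the pathway, 1 rose and 5 fell. SOCS3, a feedback inhibitor of JAK kinases, averaged 223 ± 28.0 normalized reads in the RBP4 libraries and 397 ± 35.3 in the control libraries (log2 fold change -0.83, adjusted p = 3.44e-12 in limma). The phosphatase gene PTPN1 was 1.26-fold lower (log2 fold change -0.34, adjusted p = 6.90e-12 in limma) and PTPN11 1.19-fold lower (log2 fold change -0.25, adjusted p = 3.60e-10 in limma), while IRF2BP2, a corepressor that binds IRF2, rose 1.13-fold (log2 fold change 0.18, adjusted p = 0.000109 in limma). All genes tested, of which 24.5% rose and 26.1% fell, are the background for each of these lists. That background depends on level. Of all genes tested averaging 200 or more normalized reads, where most tested genes of these lists lay, 22.8% rose and 38.4% fell.

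Of 13 tested genes of nucleic acid sensing and relay, 5 rose and 2 fell, where 24.5% of all genes tested rose and 26.1% fell. TRIM25, the ligase that modifies RIG-I, averaged 3066 ± 70.5 normalized reads in the RBP4 libraries and 2193 ± 73.7 in the control libraries (log2 fold change 0.48, adjusted p = 2.31e-19 in limma). MAVS, the mitochondrial adaptor of RIG-I and MDA5, rose 1.26-fold (log2 fold change 0.33, adjusted p = 5.11e-13 in limma), TMEM173, which encodes STING, 1.22-fold (log2 fold change 0.29, adjusted p = 2.82e-06 in limma), and the kinase gene IKBKE 1.42-fold (log2 fold change 0.50, adjusted p = 0.000526 in limma).

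Of 33 tested interferon-inducible genes outside the members, 19 rose and 5 fell, with a median log2 fold change of 0.33. Over all genes tested, 24.5% rose and 26.1% fell, with a median of -0.0021. GBP5, which rose, and CXCL10, which was not called, would not have met the filter through the control libraries alone. The count and median of this list carry that selection. HELZ2, a nuclear helicase, averaged 1199 ± 77.7 normalized reads in the RBP4 libraries and 488 ± 22.0 in the control libraries (log2 fold change 1.29, adjusted p = 6.26e-31 in limma). UBE2L6, the enzyme that hands ISG15 to HERC5, averaged 851 ± 3.01 normalized reads in the RBP4 libraries and 519 ± 24.7 in the control libraries (log2 fold change 0.71, adjusted p = 4.58e-17 in limma). PNPT1, a mitochondrial exoribonuclease, was 1.31-fold lower (log2 fold change -0.39, adjusted p = 2.49e-14 in limma) and LY6E, a membrane-anchored surface protein, 1.34-fold lower (log2 fold change -0.42, adjusted p = 2.61e-13 in limma). Of 11 tested genes of MHC class I presentation, 6 rose and 1 fell, against the same shares of all genes tested. HLA-B, which rose, would not have met the filter through the control libraries alone. HLA-E rose 1.40-fold (log2 fold change 0.49, adjusted p = 1.07e-15 in limma), ERAP1, which trims peptides, 1.30-fold (log2 fold change 0.38, adjusted p = 6.83e-09 in limma), and PSMB9, a subunit of the immunoproteasome, 1.44-fold (log2 fold change 0.52, adjusted p = 9.19e-05 in limma). B2M, the light chain of class I molecules, was 1.14-fold lower (log2 fold change -0.19, adjusted p = 4.37e-07 in limma).

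**Figure D4:**
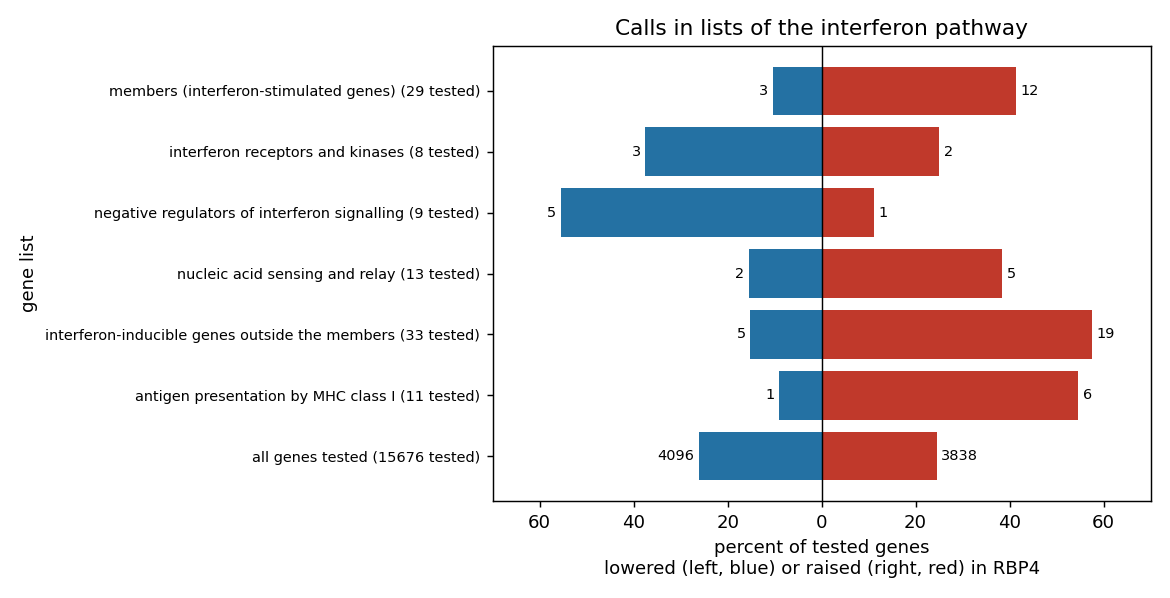
Percent of the tested genes of each list that rose (right, red) or fell (left, blue) in the RBP4 libraries, with the count beside each bar (limma, adjusted p under 0.05); the interferon ligands, with no tested gene, and the transcription factors are not drawn. The members had 12 raised and 3 lowered of 29, and all genes tested had 3838 raised and 4096 lowered of 15676.

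The authors' deposited table, with its own test, put 13 members past the same threshold of 0.05, with 11 higher and 2 lower in RBP4. Each of these 13 was also called here, with the same sign. The 2 members called here alone were IRF7 and SAMD9, for which the authors' deposited table gives adjusted p-values of 0.0603 and 0.0691.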

How the data were processed

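Polyadenylated RNA of 6 libraries (3 RBP4, 3 control) was sequenced on an Illumina platform; per the labels' protocols a NEBNext Ultra kit was used, which does not mark the strand, so overlapping genes on opposite strands are not separated. Alignment and counting tools: not given in the sources used here. Per the file headers, the table deposited by the authors holds normalized signal by library, group means, and their own log2 fold change, p-value and adjusted p-value of every gene. All signal values (100%, tolerance 0.01 reads) came out as whole reads once divided by a step particular to each library; these recovered counts gave the depth and served in alternative tests. Gene coordinates are on GRCh38.

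Genes reaching 10 in 3 or more libraries were tested on log2(value + 1) with limma 3.58.1 (R 4.3.3; trend and robust variance), two-sided, with Benjamini-Hochberg adjustment over all 15676 genes and a threshold of 0.05; the pseudocount understates changes of low genes. SE denotes a standard error. Fold values are ratios of group means. Alternatives were a pseudocount of 5, no filter, a minimum of 50, equal totals, TMM, edgeR 4.0.16 and DESeq2 1.42.0 on the recovered reads, a replicate block and leaving out each library. The fit was tested on simulated data. A gene of the pathway is not reported here, nor is the count of its list. Members and lists were chosen with earlier results of these data known. Named were all members and, of each pathway list, up to 4 called genes with the smallest p-values. DHX58, GBP5, CXCL10, HLA-B and IFITM2 were named besides. Values per library are given for called members with a log2 fold change of at least 0.5 in size. They are also given for the 5 most abundant members and some others of low level. Near the filter, GBP4, HERC5, OASL and RSAD2 had 3 libraries at 10 or more, and ISG20, just outside, had 1. Markers of lymphoid cells summed to 9.94 to 10.6 CPM in the RBP4 libraries and 9.12 to 13.2 CPM in the control libraries, and those of epithelial cells and fibroblasts to 47.0 to 49.5 CPM in the RBP4 libraries and 58.8 to 63.3 CPM in the control libraries; without EPCAM the second sum was 12.0 to 13.7 CPM in the RBP4 libraries and 8.23 to 10.7 CPM in the control libraries. Stretches of 50 bases shared between genes were counted over all GENCODE 29 transcripts on both strands.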

Additional observations from a re-analysis of the deposited data

How the results depend on the processing

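The counts of 12 raised and 3 lowered members, and of 7934 genes called in all, stayed within 1.5 times of these values in all 14 alternatives. Leaving out single libraries gave 11 to 14 raised and 2 to 4 lowered members and 7044 to 7521 genes called. Of the 15 called members, 13 kept their call and direction in each alternative in which they were tested; the others were IRF7 and SAMD9, each lost without single libraries, and no called member changed sign. Some members that were not called changed sign. OASL had a log2 fold change of 0.41 with edgeR and 0.40 with DESeq2 and between -2.12 and 0.39 without single libraries. Without single libraries IRF9 ranged from -0.23 to 0.036, IFIT1 from -0.10 to 0.36 and IFIT2 from -0.060 to 0.10; the cause was not tested. Adding the replicate number as a replicate block left 12 raised and 3 lowered members and 7829 genes called. Deviations of same-numbered libraries had correlations of 0.0037, -0.0079 and -0.017, and those of differently numbered libraries ran from -0.0092 to 0.016. The labels do not say whether same-numbered libraries shared a culture or batch, and these correlations cannot tell. Of the tested members, 14 averaged under 50 normalized reads, and 7 members did not reach the filter.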
